A study of Dunaliella tertiolecta with 6 samples.

Results

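The genes described here encode the proteins that build and move the flagella of the green alga Dunaliella tertiolecta: tubulins, dyneins, radial spokes, the intraflagellar transport (IFT) and BBSome particles, and basal body proteins. They are the genes whose annotated name is DHC, RSP, IFT, BBS, POB, TUA, TUB, DIC, DLC, ODA or IDA followed by a number, with or without a copy letter, and whose mean over the 6 libraries was at least 1 FPKM (fragments per kilobase, adjusted for library size). The pattern matched 94 genes, and all 94 reached that level, out of 14354 genes in the table and 11273 that were tested. No gene was named DLC with a number. The names come from the authors' annotation, and the roles given below are those known from flagella in general or, where stated, from the related alga Chlamydomonas.

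Poly(A)-selected RNA came from wild-type vegetative cells of strain UTEX LB 999, a wall-less alga that swims with a pair of flagella. All flasks held 2 M NaCl and were shaken at 140 rpm in constant light (100 µE) at 24 °C, with either 0 or 1.5 µM added iron and 3 libraries at each level. The sources give the time as 2 d in one label and as 3 days in another. Nothing in the labels says whether flasks had precultures of their own, and p-values therefore cover only the spread among these 6 libraries.

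A flagellum is a microtubule shaft, the axoneme, that grows from a basal body. Dynein arms on the outer microtubule doublets make it bend, radial spokes pass signals from the central pair of microtubules to those arms, and IFT trains carry building blocks out and worn parts back, with the BBSome riding on the trains. In Chlamydomonas the genes of these parts are known to be induced together when flagella are lost and regrown.

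The FPKM of a library added up to 808592 to 898151 without added iron and to 982304 to 1021467 with 1.5 µM, over 12253 to 12509 detected genes. Depth can be read only roughly, from steps in the low values. If a step is 1 read, depth ran from 15300000 to 20200000 reads, except in the 1.5 µM replicate 3 library, which had 10200000. With that depth and the full coding length, the least read member in any library was POB11B, at 27.6 reads, and the lowest library of TUA1A had 25584. The depth itself was read with the length shortened by 205 nt in both replicate 3 libraries and in replicate 1 without added iron. Read counts by the full length are too high there, most of all for short genes. The libraries were compared with limma on log2(FPKM + 1), two-sided, with Benjamini-Hochberg adjustment over all 11273 tested genes and a threshold of 0.05. A fold change is the level without added iron minus the level with 1.5 µM, on the log2(FPKM + 1) scale, which understates the change of genes with low values. A gene's FPKM is a relative measure within a library, and a higher level in each cell cannot be told apart from more cells that use the gene.

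Without added iron, 19 of the 94 flagellar genes were higher, 4 were lower and 71 did not pass the test. That is 20.2% higher and 4.26% lower, where 11.6% of all tested genes were higher and 18.7% were lower. The counts depended on the scaling, since FPKM sums were lower in all libraries without added iron: with the sums set equal 56 members were higher and 0 lower (28.3% and 9.64% of all tested genes). The genes that rose included 3 of 4 tubulin genes, 5 of 17 radial spoke genes, 6 of 17 POB genes, 3 of 9 BBS genes, 1 of 21 IFT genes and 1 of 11 genes named DIC, ODA or IDA. The 4 that fell were all among the 15 dynein heavy chains. The changes were small. The median log2 fold change was 0.25 over the members and -0.03 over all tested genes, 9 members differed by at least 1.5-fold on this scale, and RSP12, the only member past 2-fold, had a log2 fold change of 1.03.

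The libraries of the same replicate number moved together, so the test was also run with the number as a block. With that block 41 members were higher (43.6%, against 14.3% of all tested genes) and 7 were lower (7.45%, against 21.0%). In all 3 same-numbered pairs 64 members were higher (68.1%, against 28.5%) and 17 were lower (18.1%, against 36.2%). The 3 libraries of one level lay wholly above those of the other for 28 members that were higher without added iron (29.8%, against 19.6% of all tested genes) and for 11 that were lower (11.7%, against 28.0%). The number of calls rested on single libraries. It was 23 with all 6, 10 without 1.5 µM replicate 3, 11 without 1.5 µM replicate 1, 12 without 0 µM replicate 2, 13 without 0 µM replicate 3, 20 without 0 µM replicate 1, and 37 without 1.5 µM replicate 2. Of the 23 called members, 9 passed whichever library was left out: TUA1A, TUA1B, TUB2, RSP20, IFT27, POB17, POB23, POB29 and DHC2.

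**Figure D1:**
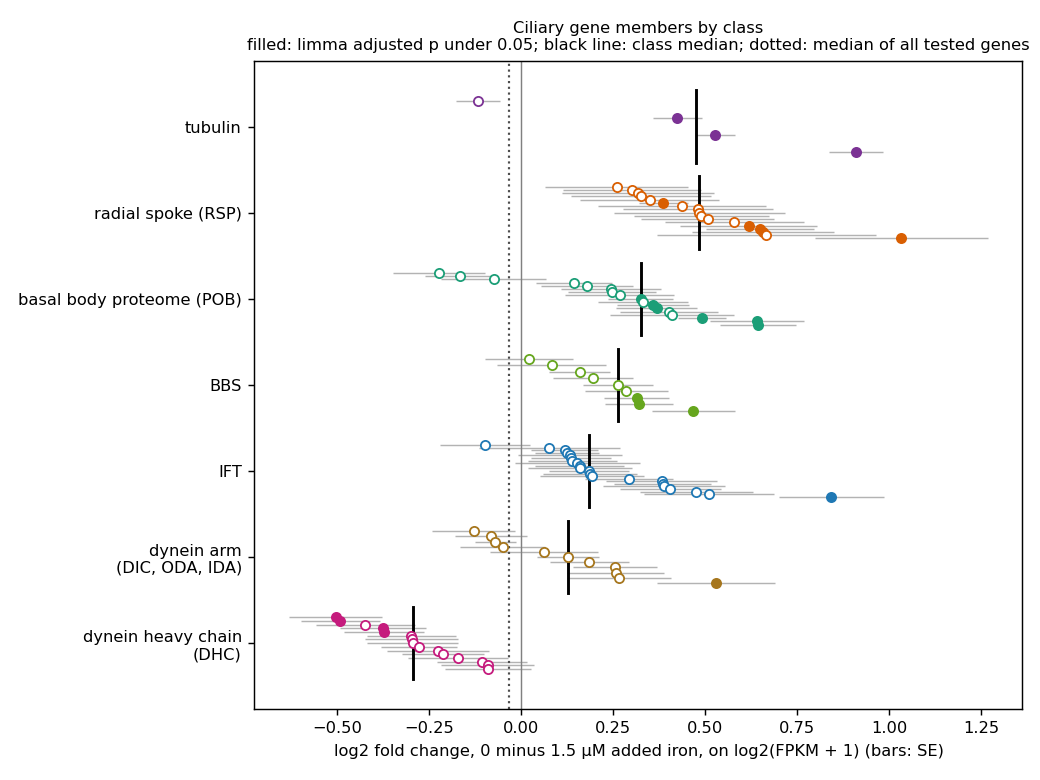
Log2 fold change (0 minus 1.5 µM added iron, on log2(FPKM + 1)) of each of the 94 genes by class, with bars for the standard error. Filled points passed limma at an adjusted p under 0.05, black lines are class medians and the dotted line is the median of all tested genes (-0.03): all 17 radial spoke genes lie right of 0 and all 15 dynein heavy chains lie left of it.

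The α- and β-tubulins form the heterodimer from which all microtubules, in flagella, spindle and cytoplasm, are built. The annotation names 2 genes for each, and 3 of the 4 rose without added iron. TUA1A (Dte_g02143, scaffold_13 from 2154343 to 2157208, plus strand, 8 coding exons) was the most abundant member, with 2581, 2795 and 2682 FPKM in replicates 1, 2 and 3 without added iron and 1889, 1853 and 1845 FPKM with 1.5 µM. The groups did not overlap, and its log2 fold change was 0.53 (SE 0.05, limma adjusted p = 0.00036). TUA1B (Dte_g13965, scaffold_06 from 10150311 to 10153620, plus strand) had 569, 613 and 598 FPKM against 470, 420 and 437, a log2 fold change of 0.43 (SE 0.07, limma adjusted p = 0.00294).

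The β-tubulin genes did not move alike. TUB2 (Dte_g03206, scaffold_10 from 1982444 to 1986796, minus strand) had 1110, 1316 and 1260 FPKM without added iron and 640, 660 and 656 FPKM with 1.5 µM. Its mean was 1.89 times as high without added iron, the groups were far apart, and its log2 fold change was 0.91 (SE 0.07, limma adjusted p = 0.000116). TUB1 (Dte_g00794, scaffold_03 from 9867383 to 9873301, minus strand) had 253, 270 and 257 FPKM against 290, 280 and 275. Its libraries without added iron all lay below the others, but the log2 fold change of -0.12 did not pass (limma adjusted p = 0.177), and it was 0.11 with the FPKM sums set equal and 0.08 under quantile normalization.

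The ratio of TUB2 to TUB1 was therefore 4.73 ± 0.289 (SD, n = 3) without added iron and 2.32 ± 0.097 (n = 3) with 1.5 µM, and every library of the first level lay above every library of the second. An exact two-sided permutation test gave p = 0.1, the smallest that 3 against 3 libraries allow, for this ratio and for 2 others, and 0.1 adjusted over the 3. The ratio of TUA1A to TUA1B was 4.52 ± 0.038 without added iron and 4.22 ± 0.198 with 1.5 µM. Summed α-tubulin over summed β-tubulin was 2.21 ± 0.090 and 2.47 ± 0.063. The 4 tubulin genes held 0.559% ± 0.033 of all FPKM without added iron and 0.324% ± 0.0079 with 1.5 µM (SD, n = 3 each). The lower FPKM totals without added iron widen this gap, as the tubulin sums were 4768 ± 242 and 3237.5 ± 44.0 FPKM. Both α genes have coding lengths of 1356 nt and both β genes of 1332 nt. No source used here says how alike the copies are or how reads that fit both were assigned. That leaves the split within each pair, and a sum from which such reads were left out, uncertain. The β sum was 1489 ± 114 FPKM without added iron and 933 ± 5.80 with 1.5 µM.

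**Figure D2:**
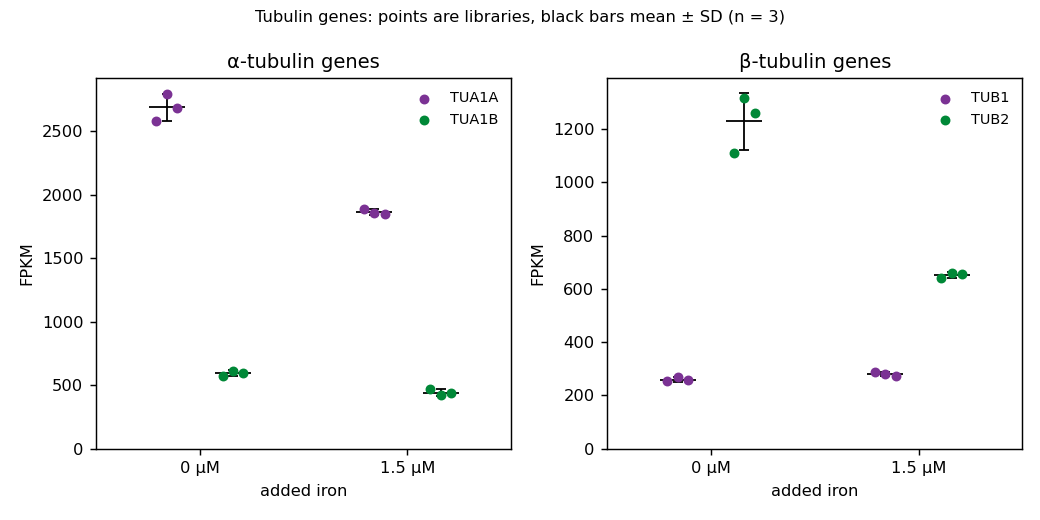
FPKM of the α-tubulin genes (left) and β-tubulin genes (right) by added iron, with 1 point per library and black bars for the mean ± SD (n = 3). TUA1A, TUA1B and TUB2 lie higher in every library without added iron, whereas TUB1 lies between 253 and 290 FPKM in all 6.

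Dynein heavy chains are the motor subunits of the arms and are encoded by some of the longest genes of an alga. The 15 DHC members had coding lengths of 2427 to 14010 nt, with a median of 10850 nt, and mean levels of 3.81 to 33.5 FPKM. All 15 had negative log2 fold changes, from -0.50 to -0.09 with a median of -0.29. Without 0 µM replicate 1 the median was -0.17 and DHC10B turned to 0.035, and without any other single library the median lay between -0.36 and -0.23. Of them 4 were lower by the test and none was higher, 7 were lower with the replicate block, and 13 were lower without added iron in all 3 same-numbered pairs. Of all tested genes 18.7% were lower, 21.0% with the block and 36.2% in all 3 pairs. Among all 163 tested genes over 8000 nt these shares were 31.3%, 33.1% and 69.3%. The highest levels were those of the outer arm chains of Chlamydomonas nomenclature, DHC13 (α), DHC14 (β) and DHC15 (γ), whose summed level was 72.8 ± 11.0 FPKM without added iron and 89.6 ± 6.88 FPKM with 1.5 µM (SD, n = 3).

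DHC2 (Dte_g13814, scaffold_06 from 7920408 to 7980962, minus strand, 84 coding exons) had 5.20, 5.80 and 5.72 FPKM in replicates 1, 2 and 3 without added iron and 7.72, 7.59 and 9.49 FPKM with 1.5 µM. The groups did not overlap, and it fell by 0.49 on the log2 scale (SE 0.11, limma adjusted p = 0.0128). DHC16 (Dte_g08385, scaffold_08 from 7470134 to 7507042, minus strand), which in Chlamydomonas is the motor that returns IFT trains to the cell body and not part of an arm, had 3.39, 4.98 and 4.21 FPKM against 6.26, 6.12 and 6.53. It fell by 0.50 (SE 0.13, limma adjusted p = 0.0223), with no overlap between the levels. DHC13 (scaffold_06 from 8375211 to 8432799, minus strand) had 17.1, 20.1 and 22.2 FPKM against 25.7, 24.1 and 27.7, without overlap, and fell by 0.37 (SE 0.11, limma adjusted p = 0.0379). DHC12 had 4.22, 5.27 and 5.60 FPKM against 6.74, 6.34 and 7.29, also without overlap, and fell by 0.37 (SE 0.12, limma adjusted p = 0.0462).

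In each of these genes the lowest library was replicate 1 without added iron, as it was among the libraries of its level for all 15 heavy chains. The call of DHC16 was lost without 0 µM replicate 3 and without 1.5 µM replicate 1 or 3 (limma adjusted p = 0.055 to 0.0743). That of DHC13 was lost without either of 0 µM replicates 1 and 2 or 1.5 µM replicates 1 and 3 (limma adjusted p = 0.0802 to 0.121), and that of DHC12 whichever library other than 0 µM replicate 3 was left out (limma adjusted p = 0.0583 to 0.142). With the FPKM sums set equal no heavy chain passed and the class median was -0.07. That scaling moved the median of all tested genes by 0.20, and relative to it the class median was -0.25, close to the -0.26 without it.

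The other heavy chains ran the same way at smaller size or larger error. DHC14 (24.9, 32.4 and 33.0 FPKM against 34.7, 36.2 and 40.1) had no overlap between levels and a log2 fold change of -0.30 that did not pass (limma adjusted p = 0.105), and it passed with the replicate block (limma adjusted p = 0.0401). The block also brought below the threshold DHC1 (-0.29, limma adjusted p = 0.0439 with the block), a chain of the two-headed inner arm and at 14010 nt the longest member, and DHC9 (-0.42, limma adjusted p = 0.0158 with the block). DHC15 had 18.5, 24.0 and 26.3 FPKM against 25.4, 25.3 and 29.8 and did not pass (-0.23, limma adjusted p = 0.256). The shortest model, DHC10A, covers 2427 nt and had a log2 fold change of -0.30 (limma adjusted p = 0.118), beside -0.09 for DHC10B with 7962 nt, the other gene model named for the second chain of that inner arm.

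Coding length ran with the fold change across the whole table, so the heavy chains were set beside other long genes. Over genes that are not members the median log2 fold change was 0.04 up to 1000 nt, -0.02 from 1001 to 2000 nt, -0.10 from 2001 to 4000 nt, -0.16 from 4001 to 8000 nt and -0.22 over 8000 nt (152 genes). Of all 163 tested genes over 8000 nt, 31.3% were lower and 1.84% were higher, and 69.3% were lower in all 3 same-numbered pairs. The 11 heavy chains of that length had a median of -0.29, and 3 of them were lower by the test. With the block 6 of them were lower, against 33.1% of all genes of that length. Genes over 8000 nt also differed within the levels, with a median deviation from each gene's own mean of -0.28, -0.12 and 0.04 in replicates 1, 2 and 3 without added iron and of 0.13, 0.07 and 0.16 with 1.5 µM. The heavy chains had -0.38, -0.05 and 0.01 against 0.07, 0.09 and 0.26, with the lowest value in the same library.

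When the trend with coding length was taken out of each library (lowess, span 0.3), the heavy chain median was -0.02, with 6 positive and 9 negative fold changes, and no heavy chain passed. By its construction this also removes any difference that genes of one length truly share, so a difference of heavy chains as such and one of long genes cannot be told apart here. After it 31 members were higher and none was lower (14.7% and 16.9% of all tested genes), 50 and none with the replicate block as well (17.0% and 18.7%). The 6 members of 4001 to 8000 nt that are not heavy chains, IFT139, IFT140, IFT144, IFT172, ODA7B and POB20, all had positive fold changes before any correction (0.12 to 0.27, median 0.15), though none passed. The 3 heavy chains of that length, DHC3, DHC10B and DHC16, were at -0.50 to -0.09.

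As a description, Spearman's rho of fold change with coding length was -0.18 across the 11272 tested genes with a length, -0.60 across the 94 members and -0.37 across the 79 that are not heavy chains. Among the 21 IFT genes it was -0.66. Levels fell with length too, with a rho of -0.34 across all tested genes and -0.53 across the members. Genes share the libraries and are not independent replicates. The steps in the low FPKM values were clearest with the coding length shortened by 205 nt in both replicate 3 libraries and in replicate 1 without added iron. In the other 3 they were clearest with the full length, so the length used to make FPKM may differ between libraries. In replicate 3 the most crowded step held 26.1% (0 µM) and 21.9% (1.5 µM) of the low values, against 2.49% and 3.04% by the full length. In 0 µM replicate 1 the gain was small, with 17.4% against 13.8%. The part of the length used in the trend was not tested.

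**Figure D3:**
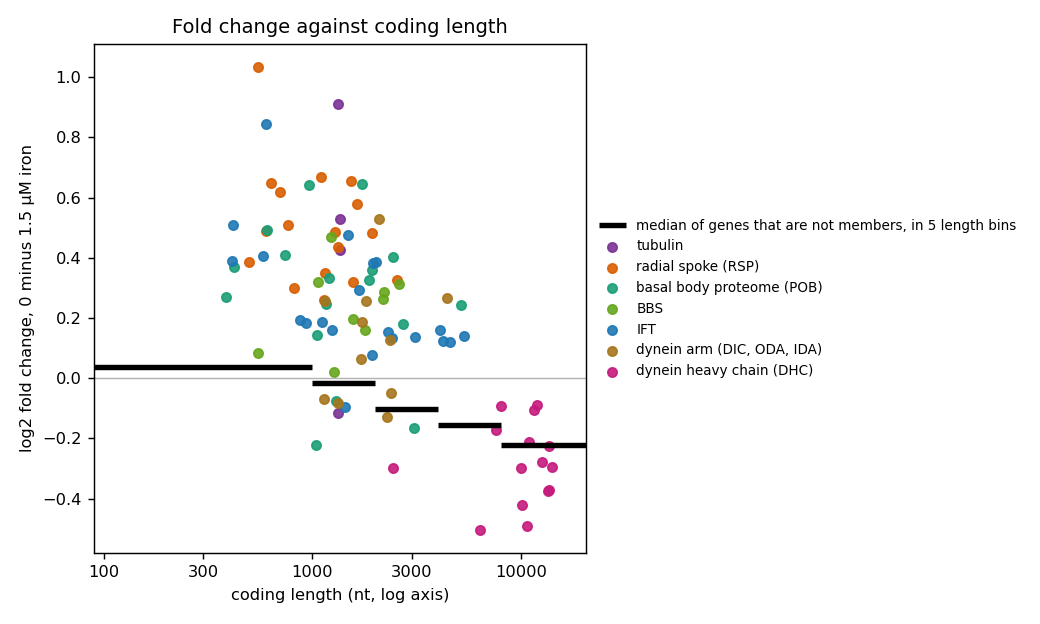
Log2 fold change (0 minus 1.5 µM added iron) of the 94 members against coding length in nt on a log axis, coloured by class. Black bars are the medians of genes that are not members in 5 length bins, from 0.04 in the shortest to -0.22 in the longest: all 15 heavy chains lie below 0, several of them (DHC2, DHC9, DHC10A and DHC16) well below the bar of their length, and most other members lie above the bars.

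The remaining 11 dynein genes, called arm genes here by the names DIC, ODA and IDA, include intermediate chains, which anchor the motors, and factors that assemble or attach the arms. These names alone do not show that every intermediate chain, such as DIC5 or DIC6, belongs to an arm. Only DIC1 (Dte_g02312, scaffold_13 from 3938219 to 3947694, minus strand), an outer arm intermediate chain, rose. It had 27.4, 35.9 and 35.0 FPKM without added iron and 18.0, 27.1 and 22.4 with 1.5 µM, the lowest of the first just above the highest of the second, with a log2 fold change of 0.53 (SE 0.16, limma adjusted p = 0.0441). Its call was lost without either of 0 µM replicates 2 and 3 or 1.5 µM replicates 1 and 3 (limma adjusted p = 0.0983 to 0.131). Its outer arm partner DIC2, at 43.1, 52.5 and 52.7 against 38.0, 54.0 and 50.9 FPKM, overlapped between levels and did not pass (0.06, limma adjusted p = 0.775).

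The 6 assembly and attachment factors did not pass and ran from -0.13 (IDA3, which in Chlamydomonas carries inner arms on IFT trains) to 0.27 (ODA7B). ODA7A and ODA7B, named for an assembly factor of the outer arm, had log2 fold changes of 0.26 and 0.27, ODA8 -0.05, and ODA16, which links outer arms to IFT, -0.08. IDA5, which in Chlamydomonas is conventional actin and so serves the whole cell, was the most abundant of the class and nearly level, with 251, 246 and 240 FPKM against 257, 262 and 254 (-0.07, limma adjusted p = 0.383). The sign of IDA5 turned with quantile normalization (0.10) and equal sums (0.16), and those of IDA3, ODA16 and ODA8 turned with equal sums. The class median was 0.13, and 0.07 without 1.5 µM replicate 1. Among outer arm genes the heavy chains DHC13, DHC14 and DHC15 were at -0.37, -0.30 and -0.23 and the intermediate chains DIC1 and DIC2 at 0.53 and 0.06, a difference that was not tested. Without the length trend the heavy chains were at -0.10, -0.06 and 0.04 and the intermediate chains at 0.61 and 0.12.

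Radial spokes are T-shaped complexes with a stalk on the doublet, a neck and a head that faces the central pair. The 17 RSP genes had a median log2 fold change of 0.49 (0.26 to 1.03), all were higher without added iron in all 3 same-numbered pairs, and 5 passed the test. Those 5 are 29.4%, against 11.6% of all tested genes, of which 28.5% were higher in all 3 pairs. With the replicate block 15 passed (88.2%, against 14.3% of all tested genes). Of the 5 head genes 2 passed, and of the 12 stalk and neck genes 3 passed; with the block it was 5 and 10.

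RSP12 (Dte_g05798, scaffold_01 from 14008147 to 14010954, plus strand), a cyclophilin-type prolyl isomerase in Chlamydomonas spokes, had 22.2, 30.8 and 21.9 FPKM in replicates 1, 2 and 3 without added iron and 8.27, 16.4 and 11.2 FPKM with 1.5 µM. Its mean was 2.09 times as high without added iron, without overlap, and its log2 fold change of 1.03 (SE 0.23, limma adjusted p = 0.015) was the largest of any member. The call was just lost without 0 µM replicate 2 or 1.5 µM replicate 3 (limma adjusted p = 0.0514 and 0.0505). RSP20 (Dte_g07350, scaffold_02 from 13388677 to 13391196, plus strand) is named for calmodulin, a calcium sensor used throughout the cell, and was by far the most abundant of the class. It had 361, 393 and 344 FPKM against 279, 275 and 284, with a tight group at 1.5 µM and no overlap, and a log2 fold change of 0.39 (SE 0.07, limma adjusted p = 0.00495).

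RSP1A and RSP1B, named for a head protein, lie 324 nt apart on the plus strand of scaffold_05, from 2138955 to 2150454. RSP1B had 33.0, 39.9 and 35.9 FPKM against 18.6, 27.9 and 22.6 and rose without overlap (0.65, SE 0.15, limma adjusted p = 0.0148). Without 0 µM replicate 2 its limma adjusted p was 0.0545. RSP1A had 15.6, 21.7 and 21.0 FPKM against 9.87, 17.2 and 14.4, which overlap, and passed with the block only (0.48, limma adjusted p = 0.117, and 0.0101 with the block). RSP7, a stalk protein with a kinase-anchor docking domain, had 23.3, 29.8 and 29.2 against 12.9, 22.5 and 16.6 FPKM and rose (0.66, SE 0.19, limma adjusted p = 0.0386). RSP10, another head protein, had 53.1, 69.9 and 55.8 against 29.6, 49.0 and 38.4 FPKM and rose (0.62, SE 0.19, limma adjusted p = 0.0416). Neither overlapped between levels, and both calls were lost without either of 0 µM replicates 2 and 3 or 1.5 µM replicates 1 and 3, that of RSP10 also without 0 µM replicate 1 (limma adjusted p = 0.0643 to 0.125).

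The other 12 spoke genes did not pass without the block and overlapped between the levels. RSP3, the protein that anchors the spoke to the doublet, had 26.6, 35.8 and 33.3 FPKM against 18.5, 33.3 and 25.8 (0.32, limma adjusted p = 0.283, and 0.0474 with the block). RSP9 of the head was the second most abundant of the class, with 51.8, 72.4 and 63.5 FPKM against 39.3, 63.6 and 50.3 (0.30, limma adjusted p = 0.264, and 0.023 with the block). RSP16, an HSP40-type chaperone, spread most, with 30.4, 40.4 and 35.0 against 13.8, 35.4 and 20.7 FPKM (0.67, SE 0.30, limma adjusted p = 0.132, and 0.0282 with the block). RSP2A (0.26) and RSP23 (0.33) of the neck did not pass with the block either (limma adjusted p = 0.0691 and 0.0593).

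The spoke genes varied in concert between libraries of one level. Their median deviation from each gene's own mean was 0.11, 0.40 and 0.23 in replicates 1, 2 and 3 without added iron and -0.61, 0.19 and -0.30 with 1.5 µM. The range within the 1.5 µM level was 0.80, larger than the differences of 0.73, 0.19 and 0.51 within the same-numbered pairs. At 1.5 µM replicate 1 was the lowest library for 16 of 17 and replicate 2 the highest for 16 of 17, and without added iron replicate 2 was the highest for all 17. Without 1.5 µM replicate 2 there were 14 calls and a median of 0.69, without 1.5 µM replicate 1 there were 3 and 0.31, and without 0 µM replicate 2 there was 1, with a median of 0.41.

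**Figure D4:**
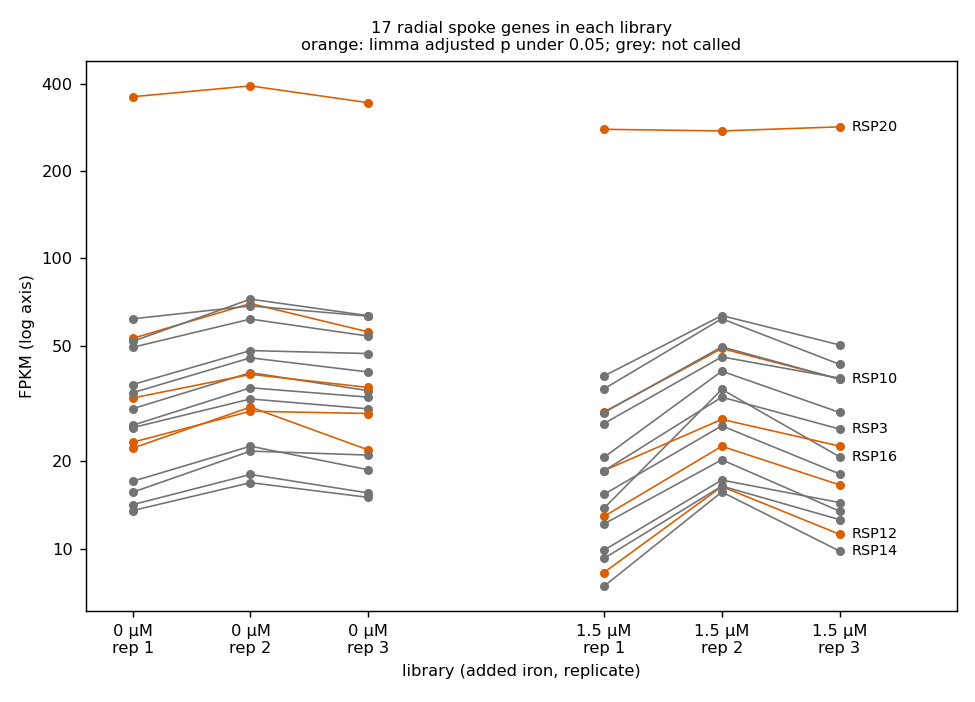
FPKM (log axis) of the 17 radial spoke genes in each library, joined within a level, with genes past limma adjusted p under 0.05 in orange. At 1.5 µM replicate 1 is low and replicate 2 high for nearly every gene, while RSP20, at the top, is level at 275 to 284 FPKM.

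IFT particles consist of the IFT-B complex, which serves outward transport, and the IFT-A complex, which serves return. The 21 IFT genes had a median log2 fold change of 0.18 (-0.10 to 0.84). Of them 1 rose, a smaller share than the 11.6% of all tested genes. In all 3 pairs 17 were higher without added iron, where 28.5% of all tested genes were. IFT27 (Dte_g10982, scaffold_07 from 11704051 to 11709903, plus strand), a Rab-like small GTPase of IFT-B, had 34.2, 47.6 and 38.2 FPKM without added iron and 22.3, 24.3 and 18.7 with 1.5 µM. The levels were well apart, and its log2 fold change was 0.84 (SE 0.14, limma adjusted p = 0.00432). Its binding partner IFT25, at 417 nt among the shortest, had 36.8, 41.5 and 36.9 against 22.7, 36.3 and 22.9 FPKM, with the lowest of the first level just above the highest of the second, and did not pass (0.51, limma adjusted p = 0.0658, and 0.0198 with the block).

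With the replicate block 8 IFT genes passed, 6 of 10 IFT-B core genes and 2 of 6 peripheral IFT-B genes, and none of the 5 IFT-A genes. Of all tested genes 14.3% were higher with it. The median log2 fold change was 0.34 for the IFT-B core, 0.18 for the periphery and 0.14 for IFT-A; the difference between them was not tested. The IFT-A genes also had the longer models, with a median of 4065 nt against 1550 nt in the IFT-B core. The 6 core genes that passed with the block were IFT22, IFT25, IFT27, IFT56, IFT70 and IFT81, and the peripheral genes were IFT20 and IFT54. IFT52, the most abundant IFT gene, had 53.7, 67.5 and 63.2 FPKM against 56.5, 72.5 and 68.7 and was the only one with a negative fold change (-0.10, limma adjusted p = 0.585), which turned to 0.13 with equal sums. IFT20, at 411 nt the shortest, had 47.1, 73.6 and 58.5 FPKM against 40.8, 51.5 and 42.3 (0.39, limma adjusted p = 0.119, and 0.0169 with the block). The longest, IFT172, a peripheral IFT-B protein, had 11.1, 13.3 and 14.4 against 10.2, 12.6 and 12.1 FPKM (0.14, limma adjusted p = 0.42), and IFT144 of IFT-A had 15.8, 17.9 and 19.2 against 15.6, 17.0 and 15.8 (0.12, limma adjusted p = 0.358).

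The IFT genes showed the same order of libraries as the spokes, with 1.5 µM replicate 1 the lowest of its level for 19 of 21 and replicate 2 the highest for 19 of 21. Their median deviations were -0.08, 0.22 and 0.18 without added iron and -0.32, 0.06 and -0.10 with 1.5 µM, so 0 µM replicate 1 lay below 1.5 µM replicate 2. Without 1.5 µM replicate 2 there were 6 IFT calls, and without 1.5 µM replicate 1 the median was 0.10. The 11 arm genes were likewise all highest in replicate 2 at 1.5 µM. The tubulins did not follow at 1.5 µM, with -0.18, -0.28 and -0.25 in replicates 1, 2 and 3. Without added iron they had 0.18, 0.29 and 0.24, the same order as the spoke medians. Replicate 1 was then the lowest and replicate 2 the highest for all 4 tubulin genes.

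**Figure D5:**
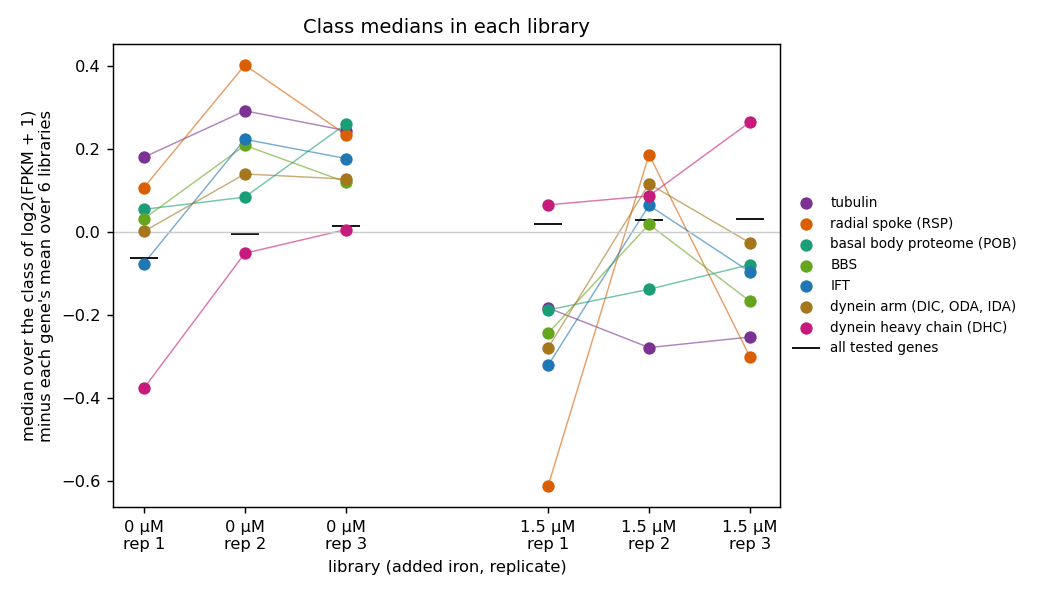
Median over each class of log2(FPKM + 1) minus each gene's mean over the 6 libraries, by library. Radial spoke, IFT, BBS and arm genes share a low replicate 1 and a high replicate 2 at 1.5 µM. Tubulin medians range over 0.11 without added iron and 0.10 with 1.5 µM, and heavy chains are lowest in 0 µM replicate 1 (-0.38).

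The BBSome is a coat-like complex that ferries membrane proteins on IFT trains. Of 9 BBS genes 3 rose, 5 passed with the block, and the median log2 fold change was 0.26. Of all tested genes 11.6% rose, and 14.3% with the block. BBS4 (scaffold_05 from 9741846 to 9751026, minus strand) had 19.6, 22.6 and 21.1 FPKM without added iron and 13.4, 17.5 and 14.3 with 1.5 µM (0.47, SE 0.11, limma adjusted p = 0.0193). BBS5A had 23.8, 24.7 and 23.2 against 17.5, 21.4 and 18.1 FPKM (0.32, SE 0.09, limma adjusted p = 0.0361), and BBS9 had 9.15, 9.86 and 10.4 against 7.17, 8.16 and 7.73 FPKM (0.31, SE 0.09, limma adjusted p = 0.0336). None of the 3 overlapped between levels. All 3 calls were lost without either of 0 µM replicates 2 and 3 or 1.5 µM replicates 1 and 3, and that of BBS5A also without 0 µM replicate 1 (limma adjusted p = 0.0536 to 0.114). BBS3, the small GTPase ARL6 that recruits the BBSome to membranes and the most abundant of the class, had 30.6, 40.9 and 28.2 FPKM against 27.3, 33.6 and 32.2 and did not pass (0.08, limma adjusted p = 0.702). BBS5B, the other gene named BBS5, was at 5.22 ± 0.489 and 5.14 ± 0.715 FPKM (SD, n = 3 each; 0.02, limma adjusted p = 0.91). BBS7, at 2199 nt the next in length after BBS9, passed with the block only (0.29, limma adjusted p = 0.0972, and 0.0447 with the block).

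POB genes are named for proteins found in a proteome of the basal body. Their 17 members had a median log2 fold change of 0.32 (-0.22 to 0.64), 6 rose, none fell, and 9 passed with the block. Of all tested genes 11.6% rose and 18.7% fell, and 14.3% rose with the block. POB17 (Dte_g10641, scaffold_07 from 7535196 to 7544875, minus strand) had 8.40, 9.26 and 9.19 FPKM without added iron and 5.75, 4.64 and 5.76 with 1.5 µM, without overlap, and rose by 0.64 (SE 0.10, limma adjusted p = 0.0034). POB23 (Dte_g07385, scaffold_02 from 13952345 to 13953785, minus strand) had 31.0, 32.5 and 31.0 against 22.4, 22.0 and 21.9 FPKM and rose by 0.49 (SE 0.07, limma adjusted p = 0.00146). Its libraries agreed closely within each level. POB29 (scaffold_12 from 6138487 to 6141530, plus strand) had 21.5, 24.2 and 24.7 against 12.7, 17.7 and 13.9 FPKM, without overlap, and rose by 0.64 (SE 0.13, limma adjusted p = 0.00855). POB10, the most abundant, had 37.0, 42.4 and 47.1 against 31.1, 33.5 and 33.0 FPKM and rose by 0.36 (SE 0.10, limma adjusted p = 0.0297).

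POB7 (0.32, limma adjusted p = 0.0299) and POB6B (0.37, limma adjusted p = 0.0425) rose as well. The calls of POB10 and POB6B were lost without either of 0 µM replicates 2 and 3 or 1.5 µM replicates 1 and 3, and that of POB7 whichever library other than 0 µM replicate 2 was left out (limma adjusted p = 0.0553 to 0.121). POB20, with 5136 nt the longest of the class, had 3.30, 3.34 and 3.74 against 2.66, 2.29 and 3.42 FPKM (0.24, limma adjusted p = 0.213), which overlap. The next in length, POB26, went the other way, with 10.9, 11.3 and 13.0 against 13.7, 12.3 and 13.8 FPKM (-0.17, limma adjusted p = 0.22). POB8 (-0.22) and POB5 (-0.07) were also negative and did not pass. At 1.5 µM replicate 1 was the lowest library of its level for 5 of 17 POB genes, against 16 of 17 spoke genes. The POB class median was lowest there all the same, at -0.19, -0.14 and -0.08 in replicates 1, 2 and 3.

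The 94 genes lie on 15 scaffolds of the authors' assembly, and no other gene model overlaps any of them. Of the 5 places where members are direct neighbours, 4 hold lettered copies on the same strand. POB11A and POB11B lie 49 nt apart on scaffold_05, RSP2A and RSP2B 719 nt apart on scaffold_11, and POB6A and POB6B 5683 nt apart on scaffold_06, beside the RSP1 genes described above. The fifth, POB12 and IFT74, lies head to head on opposite strands of scaffold_01, 259 nt apart, with log2 fold changes of 0.14 and 0.08. In these lettered pairs the copies differ in coding length (738 and 384 nt for POB11, 1137 and 768 nt for RSP2, 1167 and 420 nt for POB6), and both copies had positive fold changes. Whether such neighbours are separate genes or pieces of one cannot be told apart from the table.

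Other genes of the same organelle were taken by name from lists of related functions. Of 31 genes listed by name as other axonemal genes 2 rose and none fell, with a median log2 fold change of 0.34. With the block 15 passed, all higher. The list rests on names alone, and not every gene in it need encode a protein of the axoneme. The share higher was 6.45%, below the 11.6% of all tested genes, and with the block it was 48.4%, against 14.3%. RIB43, a protein of the inner doublet wall, had 27.0, 36.8 and 30.3 FPKM against 14.5, 25.3 and 17.3 and rose (0.72, SE 0.20, limma adjusted p = 0.0336), and CCDC81B rose as well (0.53, SE 0.13, limma adjusted p = 0.0218). PF16, a central pair protein, did not pass (0.55, limma adjusted p = 0.0518, and 0.00284 with the block). The list also holds MIA40, whose name is that of a mitochondrial import factor, and which is 1 of the 15 that passed with the block (0.41, limma adjusted p = 0.051, and 0.0491 with the block). Of 239 genes named FAP, for proteins found in flagella, 25 rose and 15 fell, with a median of 0.16, and with the block 66 rose and 18 fell. The shares were 10.5% higher and 6.28% lower, against 11.6% and 18.7% of all tested genes, and with the block 27.6% and 7.53%, against 14.3% and 21.0%. FAP333 went from 668 ± 25.5 FPKM with 1.5 µM to 1066 ± 53.0 without added iron (0.67, SE 0.06, limma adjusted p = 0.000229). FAP269 went the other way, from 173 ± 20.6 to 56.8 ± 8.66 FPKM (-1.59, SE 0.13, limma adjusted p = 0.000118), as did FAP131 (-0.64, limma adjusted p = 0.00137) and FAP19 (-0.53, limma adjusted p = 0.003).

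Among 25 genes listed by name under transport motors and the transition zone 1 rose and 2 fell (median 0.08). That is 4% and 8%, both below the 11.6% and 18.7% of all tested genes. With the block 4 rose and 2 fell (16% and 8%, against 14.3% and 21.0%). The list rests on names alone, and the genes called are a channel, a kinase and an ARL gene. PKD2, a flagellar membrane channel, was at 14.3 ± 1.83 FPKM without added iron against 21.6 ± 0.625 and fell by 0.57 on the log2 scale (limma adjusted p = 0.00557), the kinase gene CNK3 fell as well (-0.48, limma adjusted p = 0.0208), and ARL8 rose (0.48, limma adjusted p = 0.0148). FLA10, a motor subunit of the kinesin that drives outward IFT, did not pass (0.25, limma adjusted p = 0.0719, and 0.0382 with the block). Of 26 centriole and basal body genes outside the POB names 2 rose and none fell (median 0.08), a share of 7.69% higher. With the block 4 rose and none fell (15.4% higher, against 14.3% of all tested genes). Those called without the block were POC6 (0.64, SE 0.12, limma adjusted p = 0.0063) and the abundant POC14 (555 ± 9.47 against 485 ± 17.3 FPKM, 0.19, limma adjusted p = 0.0368). POC11 (0.33, limma adjusted p = 0.0709) and the long POC18 (-0.35, limma adjusted p = 0.0627) did not pass.

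Of 17 genes listed for the folding of tubulin 6 rose and 1 fell, with the same counts under the block (35.3% and 5.88%). Of all tested genes 11.6% rose and 18.7% fell without the block, and 14.3% and 21.0% with it. The chaperonin subunits CCT4 (66.4 ± 1.78 against 52.1 ± 1.67 FPKM, 0.34, limma adjusted p = 0.00686) and CCT5 (0.28, limma adjusted p = 0.0103) and the prefoldin gene PFD5 (0.48, limma adjusted p = 0.00464) rose. The gene that fell, TFC1, in the list by its name alone, had 61.2, 61.8 and 70.3 FPKM without added iron and 125, 126 and 127 with 1.5 µM (-0.96, SE 0.07, limma adjusted p = 8.83e-05).

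Tubulin and basal bodies also serve cell division, so 32 replication and cell cycle genes and 8 genes of gametes and meiosis were read beside them. In the first list 6 rose and 2 fell (18.8% and 6.25%, against 11.6% and 18.7% of all tested genes), with a median of 0.16. With the block 8 rose and 1 fell (25% and 3.1%, against 14.3% and 21.0%). Among those higher were the mitotic kinase CDKB1 (179 ± 2.19 against 132 ± 10.4 FPKM, 0.43, limma adjusted p = 0.00436), CDC20 (0.58, limma adjusted p = 0.00193) and POLA4 (0.33, limma adjusted p = 0.0162). The phosphatase CDC14 was lower (-0.59, limma adjusted p = 0.0121). In the second 2 rose and none fell (25% higher, against 11.6% of all tested genes), with a median of 0.09. With the block 2 rose and 1 fell (25% and 12.5%, against 14.3% and 21.0%). The 2 that rose were the mismatch repair family genes MSH4 (0.67, limma adjusted p = 0.00513) and MSH1C (0.62, limma adjusted p = 0.0172). MSH5A went the other way and passed with the block only (-0.44, limma adjusted p = 0.0562, and 0.0459 with the block). The cells were labelled vegetative, and this list rests on gene names alone. HOP1, a symbol used for a meiotic axis protein and also for a co-chaperone, was at 50.0 ± 2.12 FPKM without added iron and 44.0 ± 1.90 with 1.5 µM (0.18, limma adjusted p = 0.0943). The part of cell division in the values of the tubulins and basal body genes was not tested.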

How the data were processed

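FPKM per gene and library was deposited by the authors, per the file headers. STAR 2.4.0j and Cuffdiff 2.0.2 are named in the submitters' processing notes. How reads were shared among copies and whether strand was used are not given in the sources used here. Gene names, coordinates and coding lengths come from the deposited annotation of the authors' own assembly, whose models hold coding sequence only. Since these are not counts, a count test was not applied. From them log2(FPKM + 1) was computed, genes with a mean of at least 1 FPKM were kept, and limma 3.58.1 in R 4.3.3 (eBayes with trend) compared the iron levels. The members and lists were chosen with earlier results of these data known.

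Deviations from the group means correlated between same-numbered libraries at 0.24, 0.26 and 0.17 over all tested genes (0.30, 0.56 and 0.47 over the members), so replicate numbers were treated as pairs. The labels state no pairing, which thus rests on the data.

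Classes with up to 8 members are given whole. In larger ones the genes named are the 4 with the smallest p among those called in each direction, the 2 most abundant, the 2 longest and the 2 shortest, and from other lists up to 4 with the smallest p. Other members were named after their values were seen, to complete a complex or a count. The alternatives changed the pseudocount (0.1 or 0.01 FPKM), the filter (5 FPKM or none), the scaling (median ratios, quantiles or equal sums), the eBayes step (robust, or with no trend) and the design (replicate block), kept replicates 1 and 2 only or 1 gene of each set with identical values, removed the length trend, or left out each library. Removing the trend together with the block was chosen after seeing the data. The procedure was also run on simulated data, with noise drawn for each gene on its own. Deviations that genes share within a library were absent there, so their effect on the calls was not tested. Ratios were tested with scipy 1.17.1, and tables and figures were made with pandas 2.3.3 and matplotlib 3.10.9.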

Additional observations from a re-analysis of the deposited data

How the results depend on the processing

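Tubulin calls (3 of 4) changed under none of the 20 alternatives by over 1.5 times, and every class kept the sign of its median. The counts of calls in the other classes depended on the setting. Of the 23 called members 5 (TUA1A, TUB2, RSP20, POB17 and POB23) passed in every alternative, and TUA1B, IFT27 and POB29 failed only with replicates 1 and 2 only. The part of depth in these calls was not tested: POB11B, with the fewest reads, was not called, and POB6B, with 60.1 at its lowest by the full coding length, was.

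With the replicate as a block, 48 members changed (41 higher, 7 lower, all of them heavy chains), with 15 radial spoke, 8 IFT and 5 BBS genes higher, and 128 genes changed in the other lists together (64 without it). The pairing lost none of the 23 calls. With the length trend also removed, 50 members were higher and 0 lower: 14 spoke, 13 IFT, 11 POB, 6 BBS and 3 arm genes, and 158 in the other lists. With the trend removed alone, 31 members were higher and 0 lower (7 IFT, 5 BBS, 2 arm). In both, the medians were -0.024 for heavy chains, 0.23 for arm genes, 0.28 for IFT, 0.33 for BBS and 0.016 for all tested genes, and rho with length over the members was -0.39. ODA8 (0.050), DHC10B (0.13), DHC15 (0.041), DHC3 (0.039), DHC4 (0.16), DHC5 (0.033) and DHC8 (0.15) then turned positive.

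Equal sums gave 56 members changed, 56 higher and 0 lower (15 spoke, 14 IFT, 11 POB, 7 BBS, 6 arm), 148 genes in the other lists, and 3188 genes higher and 1087 lower overall. Medians were 0.45 over members, 0.17 over all tested genes, 0.71 for tubulins, -0.075 for heavy chains, 0.34 for arm genes, 0.40 for IFT, 0.48 for BBS and 0.54 for POB. IFT52 (0.13), POB26 (0.046), POB5 (0.13), IDA3 (0.052), IDA5 (0.16), ODA16 (0.14), ODA8 (0.13), DHC10B (0.12), DHC3 (0.010), DHC4 (0.10), DHC8 (0.099) and TUB1 (0.11) turned positive. Median ratios gave 30 members higher (6 IFT, 5 BBS, BBS median 0.31) and a median of all genes of 0.014. Quantiles gave 4 IFT calls, medians of 0.84 for tubulins and 0.015 for all genes, and turned IDA5 (0.096), ODA8 (0.047) and TUB1 (0.076).

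Replicates 1 and 2 only left 5 members changed, 5 higher and 0 lower (2 POB, 1 spoke, 0 IFT, 0 BBS, 0 arm), a BBS median of 0.22, 16 genes in the other lists, 1639 genes overall (531 higher, 1108 lower), and turned ODA16 (0.0035). This setting has fewer samples. No filter gave 2 members lower, 3 spoke genes and 0 arm genes higher, eBayes without trend 0 arm genes, and the 5 FPKM filter 2 IFT genes.

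Without 1 library, 10 to 37 members changed (9 to 34 higher, 1 to 3 lower), 1 to 14 spoke, 1 to 6 IFT, 0 to 3 BBS, 3 to 6 POB and 0 to 2 arm genes were higher, and 1 to 3 heavy chains were lower. In the other lists 30 to 111 genes changed, and 797 to 1283 genes of the whole table were higher. Medians ran from 0.15 to 0.29 over members, -0.36 to -0.17 for heavy chains, 0.07 to 0.16 for arm genes, 0.10 to 0.30 for IFT and 0.20 to 0.32 for BBS, and rho with length from -0.64 to -0.55. Signs turned in BBS3 (-0.071 to 0.19), BBS5B (-0.076 to 0.089), IFT74 (-0.11 to 0.25), IFT80 (-0.0061 to 0.30), IFT88 (-0.019 to 0.22), POB5 (-0.19 to 0.048), DIC2 (-0.089 to 0.16), ODA8 (-0.12 to 0.018), DHC10B (-0.21 to 0.035) and DHC4 (-0.17 to 8.48e-05), none of them called. The causes of these changes were not tested.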
